A study of Caenorhabditis elegans with 24 samples.

Results

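The comparison concerns Caenorhabditis elegans L1 larvae exposed to Escherichia coli HB101 for 24 h in ivermectin, given to block the pharynx (IvF). They are set against larvae kept in ivermectin without food for the same time (IvS). The comparison asks what a day of contact with food does to mRNA levels when the drug is meant to prevent eating. Its members are the 8 libraries whose labels give ivermectin and 24 h, 4 with food and 4 without, of 24 in the series. Levels are counts scaled to library totals (CPM), and the genes are those with more than 1 CPM in at least 4 of these libraries, which were 16376 of 44968 identifiers. The other libraries, 4 in each group, are IvF and IvS larvae collected at 1 h, and larvae of the same strain that were given food (F) or none (S) for 1 h with no drug. They are used only where values are set beside those of 24 h.

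Every group came from strain LRB269. It carries glc-1(pk54), glc-3(ok321), avr-14(vu47) and avr-15(vu227), mutations in glutamate-gated chloride channels that ivermectin acts on, and a transgene that restores avr-15 under the myo-2 promoter, active in pharyngeal muscle. IvF and IvS larvae thus shared the mutations, the transgene and the drug, given at 5 ng/mL to embryos, and differed in HB101, added a day later at 25 mg/mL to the IvF cultures. IvF and IvS larvae of a time point had the same age. The 24 h larvae were older than the 1 h larvae and had spent longer in the drug, without food in IvS. The general methods of the study give another ivermectin dose for this strain, 20 ng/mL. They describe the doses chosen as the lowest that kept each strain from eating, judged by growth. The study also reports that larvae in ivermectin with HB101 did not ingest fluorescent beads, in cultures set up as for its recovery assays. Whether larvae ate at 5 ng/mL was not tested here.

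L1 larvae that hatch without food arrest development and resume it once they feed. Food is sensed by chemosensory neurons, and insulin-like peptides relay nutrition to the FoxO factor DAF-16. The intestine, the main metabolic organ of the worm, stores fat, carries lysosome-related gut granules, and clears foreign compounds. There cytochrome P450 enzymes oxidise such compounds, UDP-glucuronosyltransferases (UGTs) and glutathione S-transferases (GSTs) conjugate them, and ABC transporters export them.

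The 8 libraries held 17186860 to 19349183 counts on genes in IvF and 15534609 to 18095234 in IvS. Among aligned reads, those outside genes made up 5.30 to 11.3% in IvF and 4.39 to 8.39% in IvS (two-sided exact permutation test, p = 0.6). The share of reads that aligned was 80.2 to 82.2% in IvF and 82.1 to 82.7% in IvS (exact permutation p = 0.0571, where 0.0286 is the smallest p that 4 against 4 libraries allow). The first principal component, with 57.3% of the variance, did not separate the groups, and the second, with 16.6%, did. Scores on the first component tended to rise with the share of reads outside genes. They ran from -46.5 at 4.39% in an IvS library to 58.9 at 11.3% in an IvF library. The cause was not tested. Reads on avr-15, which is also the transgene and shares exons with gut-2 in the annotation, came to 334 to 998 CPM in IvF larvae and 197 to 493 CPM in IvS larvae. Summed markers overlapped between the groups for pharyngeal muscle, hypodermis, body wall muscle, neurons, coelomocytes and germ line, and hlh-1, a marker of body wall muscle, was at 0 in all 8 libraries.

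After 24 h, 241 genes differed between IvF and IvS, 1.47% of those tested, at an adjusted p below 0.05 and a log2 fold change above 0.5 in size. Adjusted p is throughout from edgeR's quasi-likelihood test with Benjamini-Hochberg adjustment over the 16376 genes, and fold changes are log2 of IvF over IvS with a standard error (SE). Of these genes 178 (1.09%) were higher and 63 (0.385%) were lower in IvF larvae. With library totals alone as scaling the split was 216 higher and 35 lower. The 178 rises had a median log2 fold change of 1.21, with 110 over 2-fold, 48 over 4-fold and 22 over 8-fold. The 63 falls had a median of -0.93, with 28 over 2-fold, 4 over 4-fold and 0 over 8-fold. In each of the 178 rises the lowest IvF library lay above the highest IvS library, and 61 of the 63 falls were separated in the other direction. Over all genes tested such separation was found in 908 (5.54%) toward higher and 230 (1.4%) toward lower levels, and 1518 genes (9.27%) had an unadjusted p below 0.05. The count of 241 fell to 135 without IvF library 3 and to 159 without IvS library 4, where the libraries of a group are numbered 1 to 4 in ascending order of the numbers in their labels. Of the 241 calls, 124 held in each of the 8 fits that left out a library, and 65 in all 19 alternative fits, 62 higher and 3 lower.

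**Figure D1:**
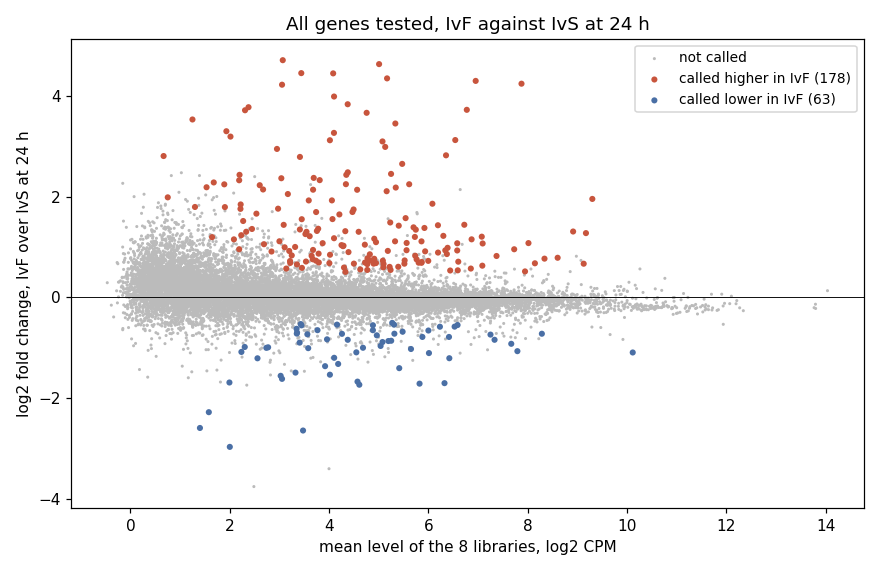
The horizontal axis gives the mean level of each gene over the 8 libraries in log2 CPM, the vertical axis its log2 fold change of IvF over IvS at 24 h, and each point is a gene. The 178 genes called higher reach 4.71 on the vertical axis, the 63 called lower reach -2.97, and the grey points are the other genes tested.

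UDP-glucuronosyltransferases were the gene list with the most rises. Of 66 tested, 15 rose (22.7%, against 1.09% of all genes) and 0 fell, and the family median was 0.27 against -0.01 over all genes. The most abundant of the 15, ugt-41, had 206, 216, 156 and 237 CPM in IvF larvae, against 21.2, 15.7, 7.35 and 14.1 CPM in IvS larvae, where here and below values run from library 1 to library 4. All 4 IvF libraries were far above the IvS libraries, although these differed among themselves (log2 fold change 3.72, SE 0.28, adjusted p = 6.78e-05). ugt-16 had 42.3, 63.3, 48.1 and 47.4 CPM in IvF larvae, against 4.12, 3.82, 3.87 and 3.21 CPM in IvS larvae (log2 fold change 3.66, SE 0.15, adjusted p = 1.30e-06). The IvS values of ugt-16 were tighter than those of ugt-41, with no overlap of the groups in either gene. ugt-21, whose exons overlap another annotated gene so that its counts are uncertain, had 25.6, 37.8, 27.7 and 33.6 CPM in IvF larvae, against 2.897, 3.54, 2.98 and 2.79 CPM in IvS larvae (log2 fold change 3.26, SE 0.14, adjusted p = 1.83e-06). ugt-63 averaged 35.5 ± 6.93 CPM in IvF larvae and 6.05 ± 0.503 CPM in IvS larvae (SD, n = 4 each; edgeR adjusted p = 2.21e-05), and ugt-33 averaged 18.8 ± 5.98 CPM in IvF larvae and 2.54 ± 0.344 CPM in IvS larvae (SD, n = 4 each; edgeR adjusted p = 4.87e-05). ugt-34, rare in starved larvae, also rose by more than 8-fold, with 6.97 CPM in IvF larvae and 0.664 CPM in IvS larvae. The other 9 were ugt-8, ugt-17, ugt-36, ugt-37, ugt-38, ugt-39, ugt-45, ugt-58 and ugt-64, with log2 fold changes of 0.54 to 1.92, of which ugt-37 and ugt-64 also overlap other genes. UGTs are a family of similar sequences, and reads shared between members cannot be assigned with certainty. When each library was left out in turn, 9 to 13 UGTs rose.

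ABC transporters, a list chosen after values had been seen, had 6 rises (12.5%, against 1.09% of all genes) and 0 falls of 48 tested. pgp-1 encodes a P-glycoprotein, a membrane pump that exports lipophilic compounds. It had 488, 460.1, 515 and 322 CPM in IvF larvae, against 31.03, 16.9, 29.6 and 12.9 CPM in IvS larvae. IvF library 4 was the lowest of its group and still above every IvS library (log2 fold change 4.24, SE 0.31, adjusted p = 6.02e-05). A second P-glycoprotein, pgp-14, averaged 357 ± 43.98 CPM in IvF larvae and 160.2 ± 26.6 CPM in IvS larvae (SD, n = 4 each; edgeR adjusted p = 0.00211). pgp-2, which is needed for gut granule formation, and the adjacent pair pgp-6 and pgp-7 rose by 0.72, 1.07 and 1.20 on the log2 scale, and mrp-3, of the multidrug resistance protein family, by 0.68. The calls of pgp-2, pgp-6 and pgp-7 held in 2, 1 and 3 of the 8 fits that each left out a library, those of the other 3 in all 8.

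Of 73 cytochrome P450 genes, 5 rose (6.85%) and 1 fell (1.37%), against 1.09% and 0.385% of all genes. cyp-33B1 had 28.8, 33.3, 22.1 and 32.5 CPM in IvF larvae, against 3.22, 3.09, 2.21 and 4.16 CPM in IvS larvae (log2 fold change 3.12, SE 0.20, adjusted p = 1.71e-05). It stood apart from the other rises, cyp-29A2 at 0.93, cyp-13B1 at 1.30, cyp-35C1 at 1.76 and cyp-14A4 at 1.84. cyp-33C3 fell by 0.65, with 23.7 CPM in IvF larvae and 35.3 CPM in IvS larvae. The rises of cyp-14A4 and cyp-35C1 held in 1 and 2 of the 8 fits that each left out a library. GSTs had calls in both directions. Of 44 tested, gst-6 and gst-27 rose by 1.55 and 1.07, and gst-20, gst-34 and gst-35 fell by 0.89, 1.69 and 1.62, and 12 of the 44 log2 fold changes were positive, with a family median of -0.33 against -0.01 for all genes. Short-chain dehydrogenases and flavin-containing monooxygenases, oxidoreductases of broad substrate range, had 2 rises of 36. These were dhs-7 at 0.99 and dhs-18 at 0.59, both with exons that overlap another gene. The calls of gst-20, gst-35, dhs-7 and dhs-18 held in 2, 1, 4 and 5 of the 8 fits that each left out a library. The metallothionein mtl-2, which binds metal ions, averaged 7.68 ± 0.836 CPM in IvF larvae and 1.45 ± 0.405 CPM in IvS larvae (SD, n = 4 each; edgeR adjusted p = 6.03e-04).

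**Figure D2:**
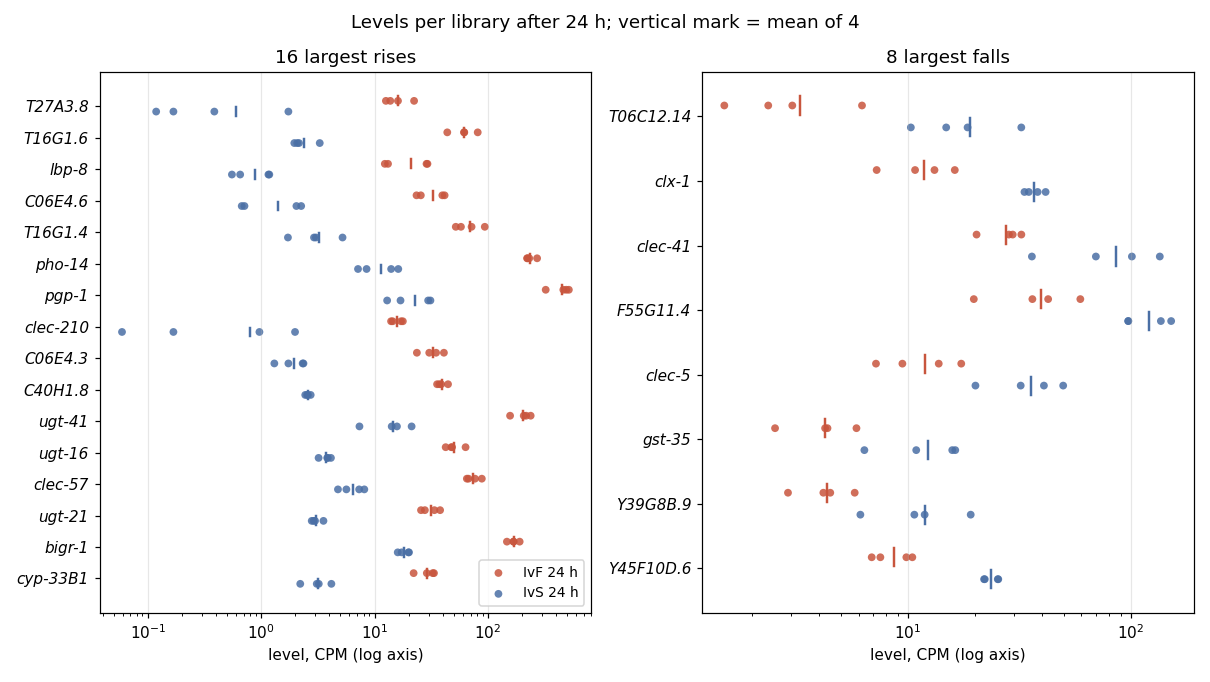
Levels of the 16 genes with the largest rises (left) and the 8 with the largest falls (right) after 24 h, in CPM on a log axis, with 1 point per library, IvF above IvS for each gene and a vertical mark at the mean of 4. Only calls whose IvF and IvS libraries were fully separate could be chosen, so the lack of overlap within each gene follows from the choice. The gap is wider for rises such as pgp-1 (322 to 515 CPM in IvF larvae, against 12.9 to 31.03 CPM in IvS larvae) than for falls such as clec-41 (20.3 to 32.3 CPM in IvF larvae, against 35.98 to 135 CPM in IvS larvae).

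Genes of lysosomes and gut granules, also a list chosen after values had been seen, had 10 rises and 0 falls of 67 tested. The rises made up 14.9%, against 1.09% of all genes. cpr-6, a cathepsin B type protease counted in another list, fell by 0.73. pho-14, a member of the acid phosphatase family, had 270.3, 221, 222 and 230.5 CPM in IvF larvae, against 16.2, 7.14, 13.98 and 8.49 CPM in IvS larvae. The 4 IvF libraries differed little among themselves and lay far above the IvS libraries (log2 fold change 4.30, SE 0.25, adjusted p = 1.19e-05). glo-3, required to form gut granules, had 58.04, 67.2, 53.1 and 55.9 CPM in IvF larvae, against 12.04, 14.2, 12.2 and 13.1 CPM in IvS larvae (log2 fold change 2.10, SE 0.11, adjusted p = 4.81e-06). Its exons overlap F59F5.3 in the annotation, and the 2 groups were each tight. hex-1, a lysosomal hexosaminidase, averaged 78.2 ± 6.14 CPM in IvF larvae and 29.1 ± 2.77 CPM in IvS larvae (SD, n = 4 each; edgeR adjusted p = 2.21e-05), and lmp-2, of a family of lysosomal membrane glycoproteins, 29.02 ± 1.92 CPM in IvF larvae and 11.1 ± 1.01 CPM in IvS larvae (SD, n = 4 each; edgeR adjusted p = 1.37e-04). acp-5, asm-2 and gba-1, which encode an acid phosphatase, an acid sphingomyelinase and a glucosylceramidase, rose by 1.39, 1.36 and 0.76, with exons of acp-5 and gba-1 that overlap other genes. The transporters slc-17.5 and slc-36.3 and the glucosidase aagr-1 rose by 1.02, 0.68 and 0.73. Those of gba-1, slc-36.3 and aagr-1 were the less stable of these calls, which held in 3, 2 and 2 of the 8 fits that each left out a library.

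Other enzymes of the gut and of lipid turnover were among the rises. ges-1, an esterase that marks the intestine, had 125, 111, 107 and 108 CPM in IvF larvae, against 54.7, 54.5, 57.6 and 50.5 CPM in IvS larvae (log2 fold change 0.98, SE 0.10, adjusted p = 4.24e-04). The groups were separate and each was tight. ges-1 was 1 of 10 intestinal markers examined, and the other 9 did not pass the test. The 10 summed to 1444 to 2233 CPM in IvF larvae and 1258 to 1694 CPM in IvS larvae. The part of intestinal RNA in these results was not tested, and more cells of a type cannot be told apart from more RNA per cell in whole larvae. Of 32 carboxylesterases, a list chosen after values had been seen, ges-1 and cest-4 rose (6.25%, against 1.09% of all genes) and 0 fell. cest-4 averaged 77.1 ± 10.04 CPM in IvF larvae and 11.6 ± 2.88 CPM in IvS larvae (SD, n = 4 each; edgeR adjusted p = 2.15e-05). In sphingolipid metabolism, a list chosen after values had been seen, 4 of 25 rose (16%, against 1.09% of all genes) and 0 fell. Beside asm-2 and gba-1 these were the ceramide synthase hyl-2 at 0.93 and the ceramide glucosyltransferase cgt-2 at 0.57, and cgt-2 kept its call in 0 of the 8 fits that each left out a library.

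Among genes of fat metabolism, lbp-8 changed most. It encodes a lipid-binding protein that carries lysosomal lipid signals to the nucleus, and had 12.3, 29.2, 13.1 and 28.7 CPM in IvF larvae, against 1.16, 1.18, 0.553 and 0.653 CPM in IvS larvae (log2 fold change 4.45, SE 0.37, adjusted p = 1.37e-04). Libraries 2 and 4 were the higher ones in IvF, and all 4 lay above IvS. It was the only rise among 21 lipid-binding proteins and vitellogenins, in which the fatty acid and retinol binding protein far-8 fell by 0.87. acl-7, an acyltransferase with exons that overlap another gene, averaged 88.5 ± 10.99 CPM in IvF larvae and 32.5 ± 2.29 CPM in IvS larvae (SD, n = 4 each; edgeR adjusted p = 2.32e-04). The acyl-CoA synthetases acs-7 and acs-14, which activate fatty acids, rose by 1.03 and 0.70, and acs-7 and maoc-1 overlap other genes. pck-1, the gluconeogenic phosphoenolpyruvate carboxykinase, rose by 0.67 with 699 CPM in IvF larvae and 418 CPM in IvS larvae. Of 39 genes of fatty acid beta-oxidation, the peroxisomal hydratase gene maoc-1 rose by 0.60 and ech-7, an enoyl-CoA hydratase, fell by 0.74. In this list 14 genes had an unadjusted p below 0.05, against 9.27% of all genes. Of the 39 log2 fold changes 29 were positive, with a median of 0.14, and DESeq2 called 7 higher. hach-1, of the propionate shunt, fell by 0.55. In edgeR 0 genes of fatty acid synthesis, elongation and desaturation (18 tested), of lipases (11) or of regulators of fat metabolism (15) passed both thresholds, with 4, 5 and 2 at an unadjusted p below 0.05. The calls of pck-1, hach-1 and maoc-1 held in 1, 2 and 3 of the 8 fits that each left out a library. Those of acs-7 and ech-7 held in 4 and 5.

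C-type lectins, proteins with a carbohydrate-binding fold of which many respond to microbes, had 7 rises and 2 falls of 157 tested. These were shares of 4.46% and 1.27%, against 1.09% and 0.385% of all genes. clec-57 had 76.6, 88.03, 64.97 and 67.2 CPM in IvF larvae, against 8.11, 7.305, 5.64 and 4.75 CPM in IvS larvae (log2 fold change 3.45, SE 0.18, adjusted p = 5.18e-06). clec-76 had 68.8, 76.6, 52.5 and 52.0 CPM in IvF larvae, against 8.69, 7.14, 8.57 and 5.64 CPM in IvS larvae (log2 fold change 2.98, SE 0.19, adjusted p = 1.71e-05). Within each group clec-57 and clec-76 were close to each other in level, and neither gene overlapped between IvF and IvS larvae. clec-210, which shares an exon with srt-56, had 17.7, 13.96, 14.4 and 17.1 CPM in IvF larvae, against 0.966, 0.169, 1.99 and 0.0594 CPM in IvS larvae (log2 fold change 4.22, SE 0.62, adjusted p = 0.00829). clec-9, clec-56, clec-75 and clec-166 rose by 2.43, 0.68, 1.74 and 0.94, and clec-5 and clec-41 fell by 1.68 and 1.72. In the list of immune response genes (2.52% called higher), irg-5 rose by 2.18, pals-23 by 0.73 and pals-24 by 0.67, 0 fell and 116 did not pass. In this list 36 genes had an unadjusted p below 0.05, against 9.27% of all genes. Its log2 fold changes were positive in 52 genes, with a median of -0.07 against -0.01 for all genes. Fits that each left out a library called 0 to 1 members of the list lower, and the other alternatives 0 to 7. Saposin-like proteins, which can lyse membranes, had a member in each direction. spp-3 rose by 1.04, and spp-20 fell by 2.28, with 1.06 CPM in IvF larvae and 4.91 CPM in IvS larvae. The calls of clec-9, clec-56, pals-24 and spp-3 held in 1, 3, 3 and 4 of the 8 fits that each left out a library. Of 58 heat shock and endoplasmic reticulum stress genes 0 passed both thresholds in edgeR. Of these genes 12 had an unadjusted p below 0.05, against 9.27% of all genes.

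Nuclear hormone receptors, transcription factors of which the worm has many, had 7 rises (3.04%, against 1.09% of all genes) and 0 falls of 230. nhr-232, which overlaps sri-18 in the annotation, had 78.6, 96.8, 78.7 and 71.96 CPM in IvF larvae, against 17.8, 20.6, 11.3 and 15.6 CPM in IvS larvae (log2 fold change 2.24, SE 0.18, adjusted p = 1.06e-04). nhr-30, which overlaps C25E10.17, rose by 2.24, with 6.18 CPM in IvF larvae and 1.23 CPM in IvS larvae, and nhr-12, nhr-92, nhr-106, nhr-130 and nhr-205 rose by 0.58 to 1.19. The calls of nhr-92, nhr-106 and nhr-205 held in 1, 1 and 0 of the 8 fits that each left out a library, which called 4 to 6 of these receptors higher. Among 23 insulin-like peptides, 8 had an unadjusted p below 0.05, against 9.27% of all genes. Fits that each left out a library called 1 to 3 of them higher, and the other alternatives 0 to 4. In the main fit ins-26 and ins-30 rose (8.7%, against 1.09% of all genes), and they are neighbours on chromosome I. ins-26 had 15.1, 15.8, 17.8 and 16.6 CPM in IvF larvae, against 9.72, 9.33, 8.95 and 8.67 CPM in IvS larvae (log2 fold change 0.75, SE 0.10, adjusted p = 0.00407). The rise was small against the largest ones but larger than the spread within either group. ins-30 averaged 69.2 ± 9.601 CPM in IvF larvae and 37.2 ± 4.897 CPM in IvS larvae (SD, n = 4 each; edgeR adjusted p = 0.0188). Of 20 genes of the insulin to FoxO pathway and its targets 0 passed both thresholds in edgeR, with 2 at an unadjusted p below 0.05. These were daf-16, with 369 CPM in IvF larvae and 422 CPM in IvS larvae (adjusted p = 0.456), and the ferritin ftn-1, with 30.2 CPM in IvF larvae and 38.9 CPM in IvS larvae and a log2 fold change of -0.44 (adjusted p = 0.0447).

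Lists of the nervous system held calls at shares below the 1.47% of all genes, which in lists of such sizes is a difference of a few genes. Of 98 neuropeptide genes 0 passed both thresholds in edgeR, with 8 at an unadjusted p below 0.05, and the lowest p among them was that of flp-3, with 189 CPM in IvF larvae and 135 CPM in IvS larvae (adjusted p = 0.232). Among guanylyl cyclases, some of which act in sensory neurons, 26 of 33 log2 fold changes were positive, with a median of 0.13. They had 0 calls in edgeR and 2 at an unadjusted p below 0.05. Of these gcy-3 lay just outside the threshold, with 9.29 CPM in IvF larvae and 3.67 CPM in IvS larvae (adjusted p = 0.0504). Of 520 chemoreceptor genes above the CPM filter, 394 had a positive log2 fold change, with a median of 0.22 against -0.01 for all genes. Of the 520, 30 had an unadjusted p below 0.05. The calls were srr-4, srv-1 and srz-97, which rose (0.577%), and str-7, which fell (0.192%). srr-4 was the most abundant of them, with 276, 316, 240.3 and 307 CPM in IvF larvae, against 128, 146, 118 and 163 CPM in IvS larvae (log2 fold change 0.95, SE 0.13, adjusted p = 0.00380). The groups of srr-4 did not overlap. srv-1 and srz-97 share exons with other genes. srv-1 kept its call in 0 of the 8 fits that each left out a library, and str-7 in 2.

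**Figure D3:**
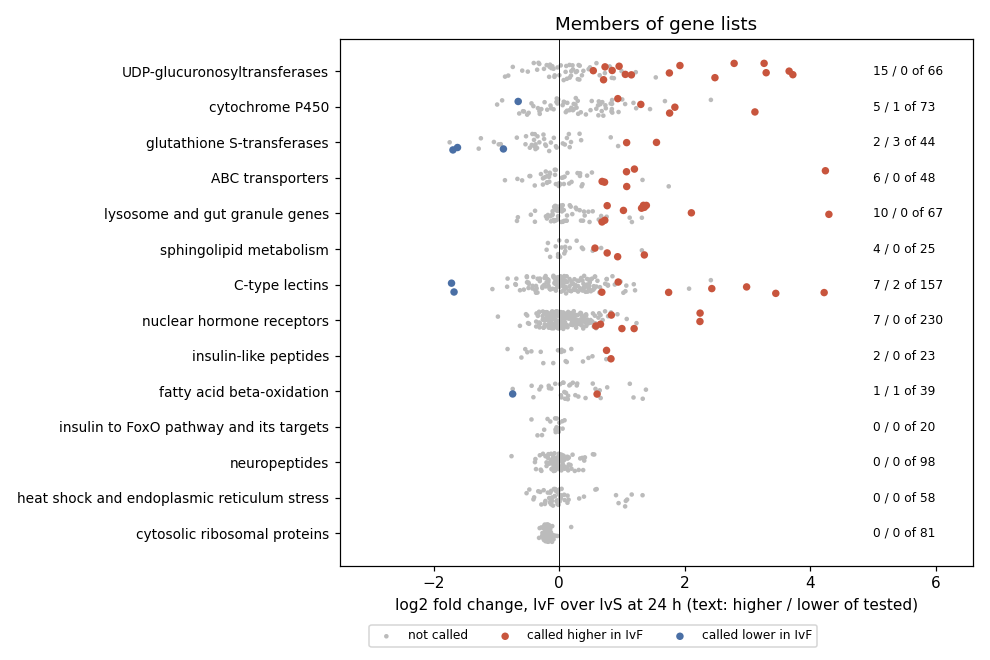
Each point is 1 gene, placed by its log2 fold change of IvF over IvS at 24 h, with gene lists down the page and the numbers called higher and lower of those tested at the right. UDP-glucuronosyltransferases show 15 called higher and 0 lower of 66, and cytosolic ribosomal proteins 0 of 81, closely grouped around a median of -0.19.

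Lists for translation, growth and structure held 0 calls, where the share of all genes called, 1.47%, amounts to at most a few genes in lists of these sizes. Of 81 cytosolic ribosomal protein genes 0 passed in edgeR, and 0 had an unadjusted p below 0.05, while 1 of the 81 log2 fold changes was positive and their median was -0.19 against -0.01 for all genes. The 20 nucleolar ribosome biogenesis genes had 0 calls in edgeR and 6 at an unadjusted p below 0.05, against 9.27% of all genes. They had 0 positive log2 fold changes and a median of -0.19. DNA replication and cell cycle (29 tested), core histones (9), autophagy (25), the mitochondrial respiratory chain (43), astacin metalloproteases (28) and cuticle collagens (153) had 0 calls each in edgeR, and 2, 0, 0, 0, 3 and 18 genes at an unadjusted p below 0.05. The collagen with the smallest p was col-117, with 60.3 CPM in IvF larvae and 102 CPM in IvS larvae (adjusted p = 0.0622).

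Among the largest rises were genes named here only by their identifiers. T16G1.6 had 43.7, 80.99, 61.7 and 61.3 CPM in IvF larvae, against 3.28, 2.08, 2.15 and 1.96 CPM in IvS larvae (log2 fold change 4.63, SE 0.22, adjusted p = 3.76e-06). T16G1.4, close to it on chromosome V, had 57.6, 93.5, 71.5 and 51.9 CPM in IvF larvae, against 5.21, 2.92, 3.04 and 1.72 CPM in IvS larvae (log2 fold change 4.35, SE 0.31, adjusted p = 4.70e-05). Library 2 was the highest of IvF and library 1 the highest of IvS for both genes. Together with T16G1.5 and T16G1.7, which rose by 1.36 and 1.57, they form a run of 4 neighbouring rises. C40H1.8 had the smallest p of all genes, with 35.5, 44.3, 37.1 and 38.6 CPM in IvF larvae, against 2.45, 2.58, 2.54 and 2.73 CPM in IvS larvae (log2 fold change 3.83, SE 0.11, adjusted p = 1.37e-07). Its libraries were tight in both groups. C06E4.6 and C06E4.3, adjacent on chromosome IV, rose by 4.45 and 3.99, and the exons of C06E4.3 overlap glb-2. T27A3.8 had the largest fold change, with 22.3, 16.1, 12.6 and 13.7 CPM in IvF larvae, against 1.74, 0.169, 0.387 and 0.119 CPM in IvS larvae (log2 fold change 4.71, SE 0.61, adjusted p = 0.00401). The IvS values rest on few reads. bigr-1, which overlaps lir-3, averaged 168 ± 17.6 CPM in IvF larvae and 18.3 ± 1.996 CPM in IvS larvae (SD, n = 4 each; edgeR adjusted p = 1.30e-06). lro-1 was the most abundant of the rises, with 954 to 1110.0 CPM in IvF larvae, against 204 to 275 CPM in IvS larvae (log2 fold change 1.95, SE 0.13, adjusted p = 1.96e-05). Next to it in level was T22F3.11, with 767 to 999 CPM in IvF larvae, against 269 to 386 CPM in IvS larvae (log2 fold change 1.27, SE 0.16, adjusted p = 0.00218), though its adjusted p was 0.976 in the fit of all 24 libraries. Without a filter on low counts T27A3.8 and clec-210 passed no longer, at adjusted p of 0.0644 and 0.0945, and the other 14 of the 16 largest rises among genes of at least 10 CPM kept their call in every fit tried.

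Rises often lay side by side. Of the 175 protein-coding rises, 36 (20.6%) had a neighbour among the rises, against 1.74% of all protein-coding genes tested. Of the 62 protein-coding falls, 6 (9.68%) had one among the falls, against 0.621%. Beside the T16G1 run these included cyp-13B1 with C29F7.1, C29F7.2 and C29F7.3 on the X chromosome, where C29F7.2 reached 144 CPM in IvF larvae and 19.4 CPM in IvS larvae and rose by 2.82, and slcf-1 with glo-3. Several runs were members of 1 family, such as ugt-37 with ugt-38, pgp-7 with pgp-6 and best-1 with best-2, and among the falls gst-34 with gst-35 and grd-3 with grd-10. Adjacent copies of a family can share reads, and the part of such reads in these runs was not tested. Chromosome V, with 22.2% of the genes tested, held 66 of the 178 rises (37.1%), the X chromosome with 14.3% held 43 (24.2%), and chromosome I with 14.9% held 8 (4.49%).

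The falls were smaller, and fewer of them held without each library. clx-1 had 7.24, 13.2, 10.8 and 16.2 CPM in IvF larvae, against 38.2, 34.8, 33.3 and 41.5 CPM in IvS larvae (log2 fold change -1.74, SE 0.18, adjusted p = 7.37e-04). Y45F10D.6, which overlaps Y45F10D.7, had 6.87, 9.83, 7.52 and 10.5 CPM in IvF larvae, against 21.9, 25.3, 22.1 and 25.4 CPM in IvS larvae (log2 fold change -1.54, SE 0.13, adjusted p = 1.12e-04). These were the 2 of the 8 largest falls among genes of at least 10 CPM whose calls held when each library was left out. T06C12.14 had 1.499, 3.03, 2.36 and 6.22 CPM in IvF larvae, against 10.3, 14.8, 18.5 and 32.2 CPM in IvS larvae (log2 fold change -2.65, SE 0.44, adjusted p = 0.0169). It was lowest in library 1 of both groups, and its call held in 6 of 8 such fits, as did that of F55G11.4 at -1.71. The calls of clec-5, clec-41, gst-35 and Y39G8B.9 held in 2, 1, 1 and 1. cht-1, a chitinase that shares exons with slcf-2, was the most abundant gene called, with 519, 835, 677 and 917 CPM in IvF larvae, against 1072, 1641, 1150.0 and 2044 CPM in IvS larvae (log2 fold change -1.10, SE 0.23, adjusted p = 0.0463). Its highest IvF library was below its lowest IvS library, but the spread within IvS was wide and the call held in 2 of the 8 fits.

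A few members of other lists fell, where 0.385% of all genes fell and 1.09% rose. The falls made up 2.17% of cathepsin-type and aspartyl proteases and 14.3% of SCP-like secreted proteins. They made up 2.78% of hedgehog-related and patched-related genes, with 1.39% higher, and 7.69% of hydrogen sulfide and hypoxia response genes. In lists of these sizes such shares are 1 or 2 genes each. cpr-6, a cathepsin B type protease and the only call among 46 cathepsin-type and aspartyl proteases, averaged 243 ± 26.9 CPM in IvF larvae and 379.9 ± 31.7 CPM in IvS larvae (SD, n = 4 each; edgeR adjusted p = 0.00577). Of 14 SCP-like secreted proteins, a list chosen after values had been seen, scl-2 and scl-11 fell by 1.07 and 2.97, and scl-2 was abundant, with 149 CPM in IvF larvae and 294 CPM in IvS larvae. Of 72 hedgehog-related and patched-related genes, the hedgehog-related grd-3 and grd-10 fell by 0.74 and 0.54, whereas the patched-related ptr-22 rose by 1.69. grd-3 and grd-10 are also seam cell markers, of which 5 summed to 74.0 to 94.4 CPM in IvF larvae and 89.4 to 95.7 CPM in IvS larvae, and the part of seam cells in these falls was not tested. sqrd-1, a sulfide:quinone oxidoreductase, was the only call among 13 genes of the hydrogen sulfide and hypoxia response, and fell by 0.85. The calls of scl-2 and scl-11 held in 4 and 5 of the 8 fits that each left out a library. Those of grd-3, grd-10, ptr-22 and sqrd-1 held in 2, 1, 2 and 1.

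The effect of food at 24 h was next set beside that at 1 h, which rests on other libraries. At 1 h, 1321 genes (8.07%) passed the same thresholds between IvF and IvS, 710 higher (4.34%) and 611 lower (3.73%). Of the 178 rises at 24 h, 63 were higher at 1 h as well, 7 were lower and 108 did not pass, and of the 63 falls, 17 were lower, 3 were higher and 43 did not pass. In the test of the difference itself, 417 genes (2.55%) had an effect of food that differed between 24 h and 1 h, with 250 (1.53%) more positive and 167 (1.02%) more negative at 24 h. They included 66 of the 178 rises, 57 with a more positive and 9 with a more negative effect at 24 h. They also included 16 of the 63 falls, 12 with a more negative and 4 with a more positive effect. Rises and falls were picked by their 24 h values, which the test of the difference uses again. Such picking favours the larger effect at 24 h, so no conclusion is drawn from these splits.

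**Figure D4:**
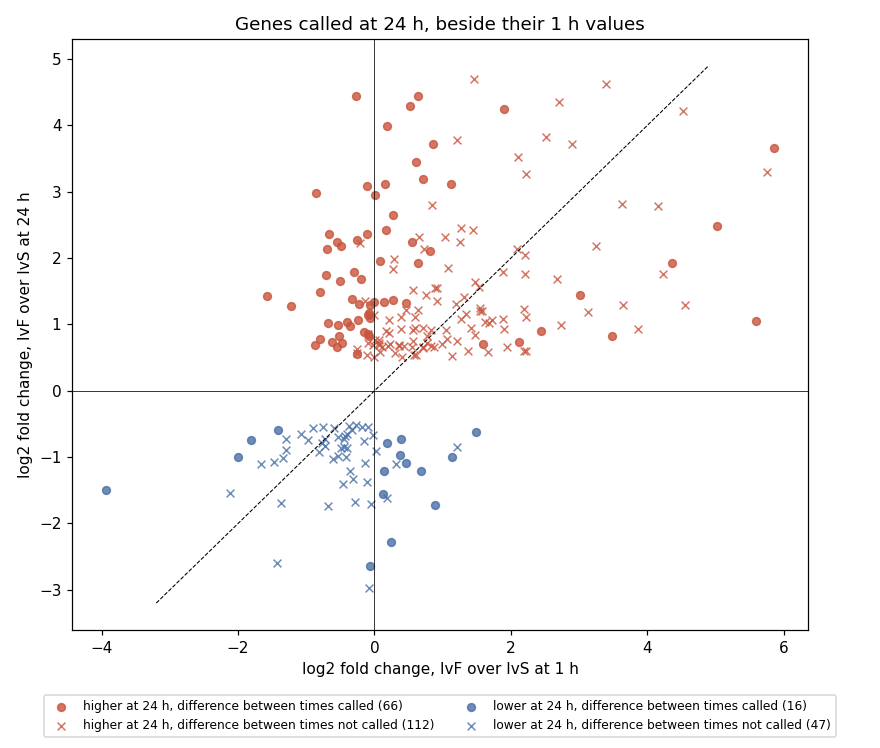
Log2 fold change of IvF over IvS at 24 h (vertical) against that at 1 h (horizontal) for the 241 genes called at 24 h, with circles for the 82 genes whose effect differed between times and crosses for the rest. The dashed line marks equal values. Circles near 0 on the horizontal axis, such as lbp-8 (4.45 at 24 h, -0.26 at 1 h), lie above the line, and others, such as ugt-37 (1.05 at 24 h, 5.59 at 1 h), lie far to its right.

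Of the 15 UGTs that rose at 24 h, 14 also passed at 1 h and 12 had the larger fold change at 1 h. In 6 of them (ugt-8, ugt-16, ugt-37, ugt-58, ugt-63 and ugt-64) the effect was smaller at 24 h in the test of the difference, and in 0 it was larger. ugt-63 had log2 fold changes of 2.48 at 24 h and 5.02 at 1 h, a difference of -2.55 (edgeR adjusted p = 6.06e-04). Of the 10 lysosome and gut granule genes that rose at 24 h, 2 also passed at 1 h (glo-3 and slc-17.5). In 6 of them (acp-5, aagr-1, glo-3, hex-1, lmp-2 and pho-14) the effect was larger at 24 h, and in 0 it was smaller. The 10 were picked by their 24 h calls from a list chosen after values had been seen, which favours a larger effect at 24 h. pho-14 had log2 fold changes of 4.30 at 24 h and 0.53 at 1 h, a difference of 3.76 (edgeR adjusted p = 2.68e-05). Its level was 236 CPM in IvF larvae and 11.4 CPM in IvS larvae at 24 h, and 10.6 CPM in IvF larvae and 7.32 CPM in IvS larvae at 1 h.

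The differences between times were most positive for lbp-8 (4.69, edgeR adjusted p = 9.96e-04), WBGene00008842 (3.92, adjusted p = 1.91e-04), clec-76 (3.83, adjusted p = 5.35e-07) and C06E4.6 (3.80, adjusted p = 3.40e-04). WBGene00008842 did not pass at 24 h, and its difference rests on the 1 h libraries, with 4.28 CPM in IvF larvae and 45.1 CPM in IvS larvae. clec-76 and clec-75 were among the 7 genes called higher at 24 h and lower at 1 h. clec-76 had log2 fold changes of 2.98 at 24 h and -0.85 at 1 h, and clec-75 of 1.74 at 24 h and -0.70 at 1 h. mrp-3 and pals-23 showed the same turn, and folt-2, a folate transporter gene, was among the 3 called lower at 24 h and higher at 1 h.

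The most negative differences were those of fmo-5 (-5.57, edgeR adjusted p = 0.0214), ugt-37 (-4.55, adjusted p = 0.0277), cysl-2 (-4.02, adjusted p = 0.0205) and dhs-8 (-3.83, adjusted p = 0.00324). fmo-5, a flavin-containing monooxygenase, had 33.95, 34.8, 37.1 and 32.3 CPM in IvF larvae, against 24.9, 20.3, 26.4 and 20.7 CPM in IvS larvae at 24 h (log2 fold change 0.51, edgeR adjusted p = 0.0621). It had 2309, 169, 115 and 5758 CPM in IvF larvae at 1 h, against 40.7, 25.8, 26.5 and 28.4 CPM in IvS larvae at 1 h. IvF libraries 1 and 4 were far above libraries 2 and 3 at 1 h, and cyp-29A2 was divided in the same way, with 912, 163, 139 and 1490.0 CPM in IvF larvae at 1 h, against 64.2, 39.7, 38.9 and 42.6 CPM in IvS larvae at 1 h. At 24 h the IvF libraries of cyp-29A2 were closer together, with 63.6, 74.4, 64.04 and 49.9 CPM in IvF larvae, against 28.97, 35.2, 27.02 and 34.1 CPM in IvS larvae. Of these genes, dhs-8 kept its call without each of the 16 ivermectin libraries, and ugt-37 lost it in 12 of the 16 fits. fmo-5 lost it without IvF library 2 of 24 h or IvS library 2 of 1 h, and cysl-2 without IvS library 4 of 24 h or IvS library 1 of 1 h.

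**Figure D5:**
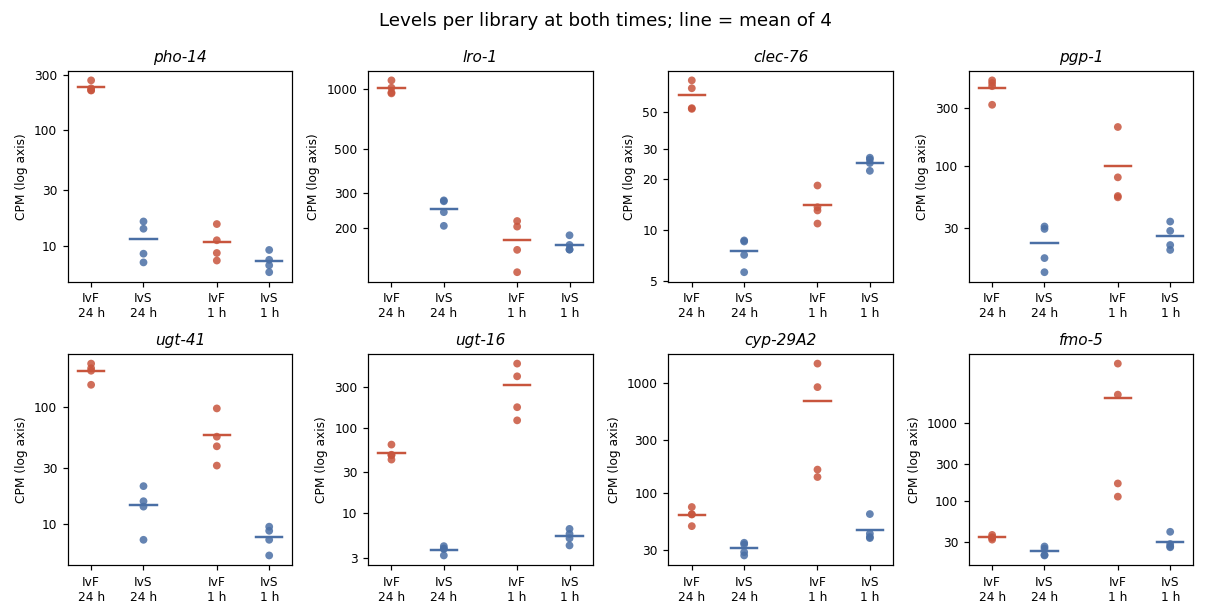
Levels of 8 genes in CPM on log axes, 1 point per library and a line at the mean of 4, with IvF left of IvS at 24 h and at 1 h. In pho-14, lro-1 and clec-76 the IvF larvae of 24 h stand highest, in ugt-16, cyp-29A2 and fmo-5 those of 1 h, and pgp-1 and ugt-41 are higher in IvF than in IvS at both times.

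Feeding without ivermectin, F against S at 1 h, differs from the 24 h comparison in drug and time, and its values are given beside the others as a description. Its libraries held 8690378 to 11209146 counts in F and 8739857 to 14139935 in S, with 6.59 to 8.95% of reads assigned to several genes in F and 6.88 to 10.2% in S, against 2.97 to 3.35% in IvF and 3.04 to 3.42% in IvS at 24 h. In it 4304 genes (26.3%) passed the thresholds, 2303 higher (14.1%) and 2001 lower (12.2%). Of the 178 rises at 24 h, 57 were higher in F larvae, 19 were lower and 102 did not pass. Of the 15 UGTs 13 were higher in F larvae, and of the 10 lysosome and gut granule genes 2 were. Of the 63 falls, 17 were lower in F larvae and 6 were higher. ges-1 and mrp-3, higher in IvF than in IvS larvae after 24 h, were lower in F than in S larvae, at log2 fold changes of -1.67 and -1.36. Of the rises at 24 h, 82 passed neither at 1 h in ivermectin nor in F against S, among them lbp-8, cyp-33B1, C06E4.6, C06E4.3, cest-4 and hex-1, and so did 34 of the falls.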

How the data were processed

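Total RNA of L1 larvae was made into mRNA-seq libraries with a kit that does not mark strand. The authors aligned the reads with Bowtie 1.1.2 to C. elegans genome release WS210 with WS220 transcripts, counted them per gene with HTSeq, whose version, mode and treatment of reads with several alignments are not given in the sources used here, and deposited raw counts per gene for each library. Genes that overlap in exons, in either direction, are named as such because their counts cannot be told apart with certainty. HTSeq's summary lines were left out of totals and tests.

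Groups came from the sample titles. Genes above 1 CPM in at least 4 of the 8 libraries were tested with edgeR 4.0.16 (R 4.3.3), TMM scaling and the quasi-likelihood F test, IvF over IvS, without a replicate block. A call needed a log2 fold change beyond 0.5 in either direction and a Benjamini-Hochberg adjusted p below 0.05. The same genes were fitted at 1 h, in F against S, and for the interaction of food and time over the 16 ivermectin libraries. CPM values are counts over library totals. Depth limits precision at low levels, where a few reads decide a value. DESeq2 1.42.0, other scalings, filters, tests and sets of libraries were alternatives. The script was tested on simulated data with 200 genes changed by 1.5 on the log2 scale. It recovered 159 of them (79.5%) and made 15 false calls.

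Named genes were the 16 largest rises and 8 largest falls among calls with a mean of at least 10 CPM and no overlap of libraries, the 6 most abundant calls, up to 6 called members of each list (2 with the smallest p where none was called) and 4 interaction genes in each direction; members beyond these, such as the remaining UGTs, and genes in runs of neighbours were named after their values were seen. The comparison and the 36 gene lists were chosen with earlier results of these data known, and 5 further lists after values were seen, as said beside them. Symbols came from the WBcel235 annotation, which matched 43622 identifiers.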

Additional observations from a re-analysis of the deposited data

Results flagged for a closer look

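Of 206 groups of 4 libraries, 6 had a library far from the other 3, where chance alone gives about 1 in 20 groups. The groups covered levels of named genes and library measures such as total counts, and the 6 were all gene levels. In IvF larvae, T22F3.11 had 999 CPM in library 1, against 767 to 772 CPM in the others, and cest-4 had 92.1 CPM in library 2, against 71.0 to 73.3 CPM. In IvS larvae, library 1 was the high one for T27A3.8 (1.74 CPM, against 0.119 to 0.387 CPM in the others), T16G1.6 (3.28 CPM, against 1.96 to 2.15 CPM) and dhs-7 (7.02 CPM, against 4.92 to 5.23 CPM). Library 4 was the low one for cgt-2 (5.88 CPM, against 7.13 to 7.27 CPM).

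The effect of food differed between 24 h and 1 h in 417 genes by the edgeR test of the interaction. Among the genes that the naming rule selected, the difference on the log2 scale was most positive for lbp-8 (4.69), WBGene00008842 (3.92), clec-76 (3.83), C06E4.6 (3.80), C06E4.3 (3.80), pho-14 (3.76), cyp-33B1 (2.92), clec-57 (2.82), nhr-232 (2.77), T22F3.11 (2.48), clec-75 (2.43) and cest-4 (2.36). It was positive as well for pgp-1 (2.35), srz-97 (2.06), bigr-1 (1.98), lro-1 (1.85), acp-5 (1.69), F46C5.1 (1.55), mrp-3 (1.54), lmp-2 (1.52), ftn-1 (1.51), dhs-7 (1.51), spp-3 (1.44), pals-23 (1.34), nhr-106 (1.33), ges-1 (1.31), gst-27 (1.29), glo-3 (1.27), pals-24 (1.19), hex-1 (1.17), acl-7 (1.09), ech-7 (1.04) and ins-30 (0.88). It was negative for fmo-5 (-5.57), ugt-37 (-4.55), cysl-2 (-4.02), dhs-8 (-3.83), clec-41 (-2.65), T06C12.14 (-2.64), spp-20 (-2.57), ugt-63 (-2.55), ugt-16 (-2.22) and Y39G8B.9 (-1.73).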

How the results depend on the processing

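The 241 calls at 24 h became 394 with edgeR's exact test, 419 with DESeq2 and 89 with a test against the fold change threshold (glmTreat). The 178 rises became 284 with DESeq2 and 82 with glmTreat. The 63 falls became 143 with the exact test, 135 with DESeq2, 7 with glmTreat, 35 with library totals only and 38 in the fit of all 24 libraries. Leaving out 1 library gave 135 to 235 calls, 118 to 167 rises and 17 to 68 falls, lowest without IvF library 3. The 417 differences between times became 775 with DESeq2, 125 with glmTreat, 215 with all 24 libraries and 685 with a mean of at least 5 CPM as filter, with 400, 80, 146 and 397 more positive and 375, 45, 69 and 288 more negative at 24 h. Leaving out 1 library gave 295 to 508, 189 to 319 of them more positive and 106 to 263 more negative. The cause of these changes was not tested. In all alternatives 0 named genes turned direction among those called in the main fit or in the alternative. Turns of named genes called in neither were not counted. Replicate numbers recur across groups. Same-numbered IvF and IvS libraries deviated together in 2 of 4 cases (correlations of 0.65 and 0.21, each with its own number as best partner) and not in the other 2 (-0.11 and -0.47), so the numbers were not taken as a pairing. With the replicate block, 425 genes were called, 242 of them higher and the rest lower, with 230 of the 241 among them, and 559 differences between times. With the share of reads outside genes as a covariate, 270 genes were called, with 215 of the 241 among them. Changes of genes at a few CPM are limited by depth.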
